A study of Mus musculus with 6 samples.

Results

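Cluster 3 is a population of 4484 tumor cells from mouse liver tumors, 15.1% of the 29638 tumor cells and 7.63% of the 58794 annotated cells of the series. Its members are the cells that carry both the cell type name tumor cells and the cluster number 3 in the authors' deposited annotation, and no other value was used to choose them. The 6 samples were tumors of 3 control and 3 stress mice, all wild type, each profiled as its own 10x Genomics single-cell library. By the study's methods, all 6 were male C57BL/6J mice, bought at 8 weeks of age, which carried tumors grown in the liver from H22, a transplanted mouse hepatocellular carcinoma line that had been passaged as ascites. Stress mice went through 21 days of chronic unpredictable mild stress, and control mice received the same tumor cells without the stressors. By the study's account, the tumor cells were implanted after the stress model had been evaluated. Values given below as under stress are those of the stress mice. The tumors of all 6 mice thus came from 1 transplanted line, and each mouse is 1 replicate. Cluster 3 held 1140, 875 and 655 cells in control mice 1, 2 and 3, and 736, 516 and 562 cells in stress mice 1, 2 and 3.

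The genes that mark cluster 3 come from different parts of cell biology. Krt18 encodes a keratin of simple epithelia, and Cldn6 encodes a claudin, a tight junction protein made mainly in embryonic epithelium and in some tumors. Mgst3 encodes a membrane-bound glutathione transferase, Aldoc an aldolase of glycolysis, and Edn2 the secreted peptide endothelin 2, which acts on endothelin receptors and is induced by low oxygen in several cell types. Their genes lie, in GRCm38, at chr15:102028180-102032027 (Krt18), chr17:23679249-23682446 (Cldn6), chr1:167371966-167393841 (Mgst3), chr11:78322968-78327781 (Aldoc) and chr4:120161206-120167360 (Edn2). Because clusters are built from the expression of these very cells, differences between cluster 3 and other clusters are given as description without a test, and tests were kept for the comparison of stress with control mice.

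A unique molecular identifier (UMI) tags 1 captured RNA molecule, and cluster 3 carried between 17422632 and 25656785 UMIs per mouse. The median cluster 3 cell held 21078, 27158 and 31965 UMIs in the 3 control mice, against 34803, 33060 and 36657 under stress, so that the stress mice were the deeper ones without overlap (exact permutation test, two-sided, p = 0.10, the smallest that 3 against 3 mice allow). The median share of mitochondrial UMIs per cell was also higher in every stress mouse, at 5.15% to 6.05% against 4.02% to 4.96%. The control libraries were counted with Cell Ranger 9.0.0 and the stress libraries with 7.1.0, and version and stress therefore cannot be told apart throughout. Scrublet, run again on the deposited cells, called between 0.408% and 1.83% of cluster 3 cells doublets in a mouse, and 54 of the 4484 cells had a barcode that also occurred in another library. Of 47 marker genes of endothelial, stellate, blood and liver cells, only Lrat and Cyp3a11 gave no UMI in cluster 3. Their summed level was 56.8, 96.2 and 58.7 CPM (counts scaled to the same total in every sum) in control mice, against 45.3, 87.1 and 121 under stress, so the groups overlapped. Of the 25 that could be tested for a change with stress, 0 passed in edgeR, 2 had an unadjusted p under 0.05 and DESeq2 called 1. The hepatocyte markers summed to between 0.242 and 0.746 CPM in a mouse.

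**Figure D1:**
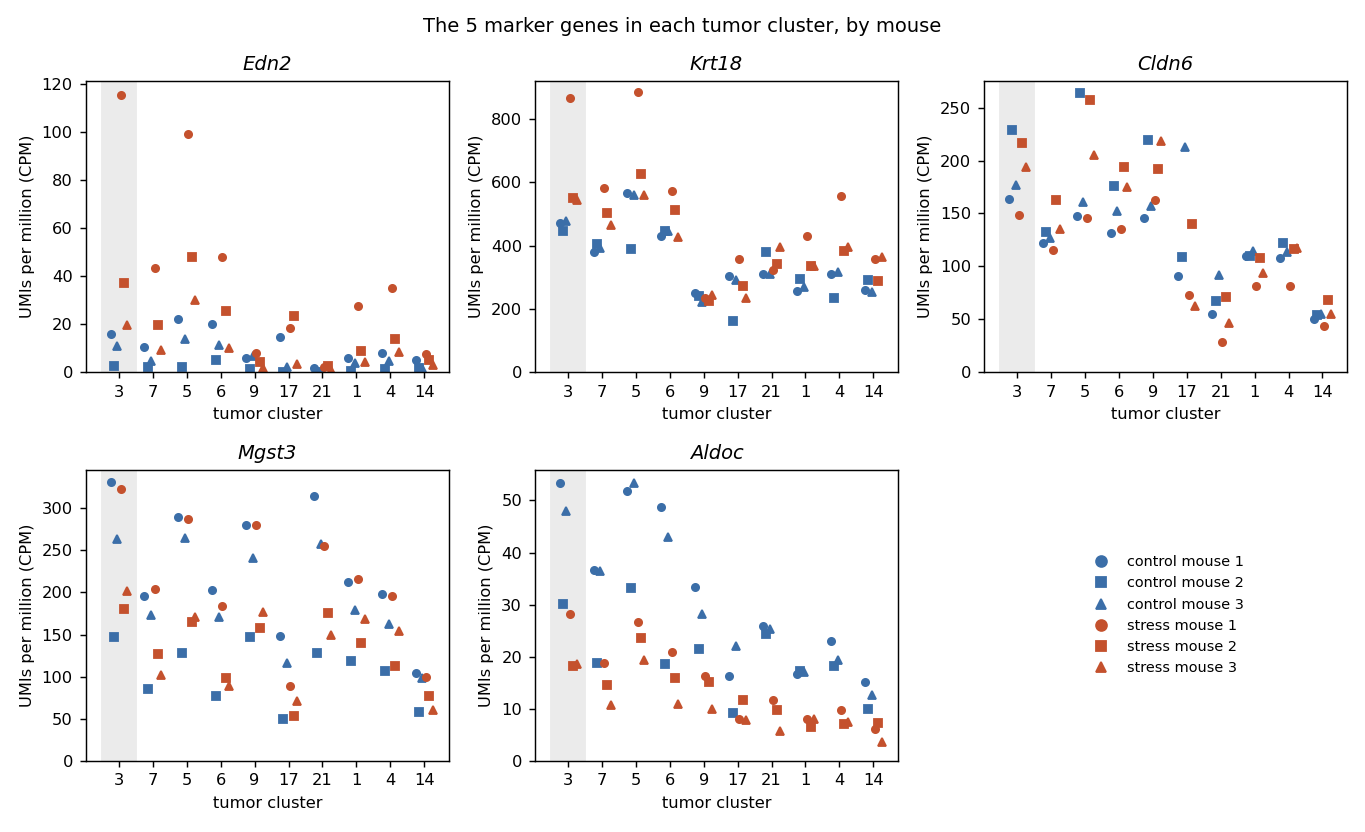
Level of the 5 marker genes in the 10 tumor clusters, in CPM of each cluster and mouse, with 1 point per mouse (blue, control; red, stress) and cluster 3 shaded. Cluster 3 lies near the top for every gene without standing alone: for Krt18 it is the second of the clusters in each of the 6 mice.

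The 5 markers were higher in cluster 3 than in the remaining tumor cells of the same mouse in all 6 mice, by modest amounts. Krt18 reached 470, 447 and 479 CPM in control mice, against 868, 551 and 544 under stress. Its log2 ratio to the other tumor cells was 0.42 to 0.65. Cldn6 ratios were 0.45 to 0.74, those of Mgst3 0.49 to 0.63 and those of Aldoc 0.67 to 0.83, while Edn2 varied most, from 0.30 to 1.40. Nearly all cluster 3 cells held a UMI of Krt18 (99.0%), Mgst3 (96.9%) and Cldn6 (91.1%), against 55.9% for Aldoc and 16.5% for Edn2. In NK/T cells, which should lack these genes, the shares were 13.9%, 11.2%, 9.12%, 5.30% and 1.004%, at a median of 4403 UMIs per cell against 28937 in cluster 3. After each tumor cell was thinned to 5000 UMIs, the shares in cluster 3 were 82.7% (Krt18), 65.7% (Mgst3), 53.9% (Cldn6), 15.1% (Aldoc) and 7.36% (Edn2), and in the other tumor cells 71.8%, 51.2%, 41.1%, 10.1% and 4.05%. Thinning left out 2 cluster 3 cells and 1072 other tumor cells.

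The markers did not set cluster 3 apart from every other tumor cluster. Krt18 was the second highest of the 10 clusters in all 6 mice, and cluster 5 was above it in 5 of them. Mgst3 was highest in cluster 3 in 4 mice, Aldoc in 2, and Cldn6 and Edn2 in 1 each. In cells thinned to 5000 UMIs, Krt8, the keratin that pairs with Krt18 in simple epithelia, had a UMI in 2.65% of cluster 3 cells and 2.21% of the other tumor cells (10.6% and 7.87% unthinned), against 0.442% of NK/T cells at their full depth. Epcam, an epithelial adhesion gene, had one in 55.1% of thinned cluster 3 cells and 47.0% of thinned other tumor cells (95.3% and 86.2% unthinned). Afp, the oncofetal alpha-fetoprotein gene, had one in 29.8% and 28.3% of them (79.2% and 69.9% unthinned). In NK/T cells at their full depth the shares were 10.48% (Epcam) and 7.23% (Afp).

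**Figure D2:**
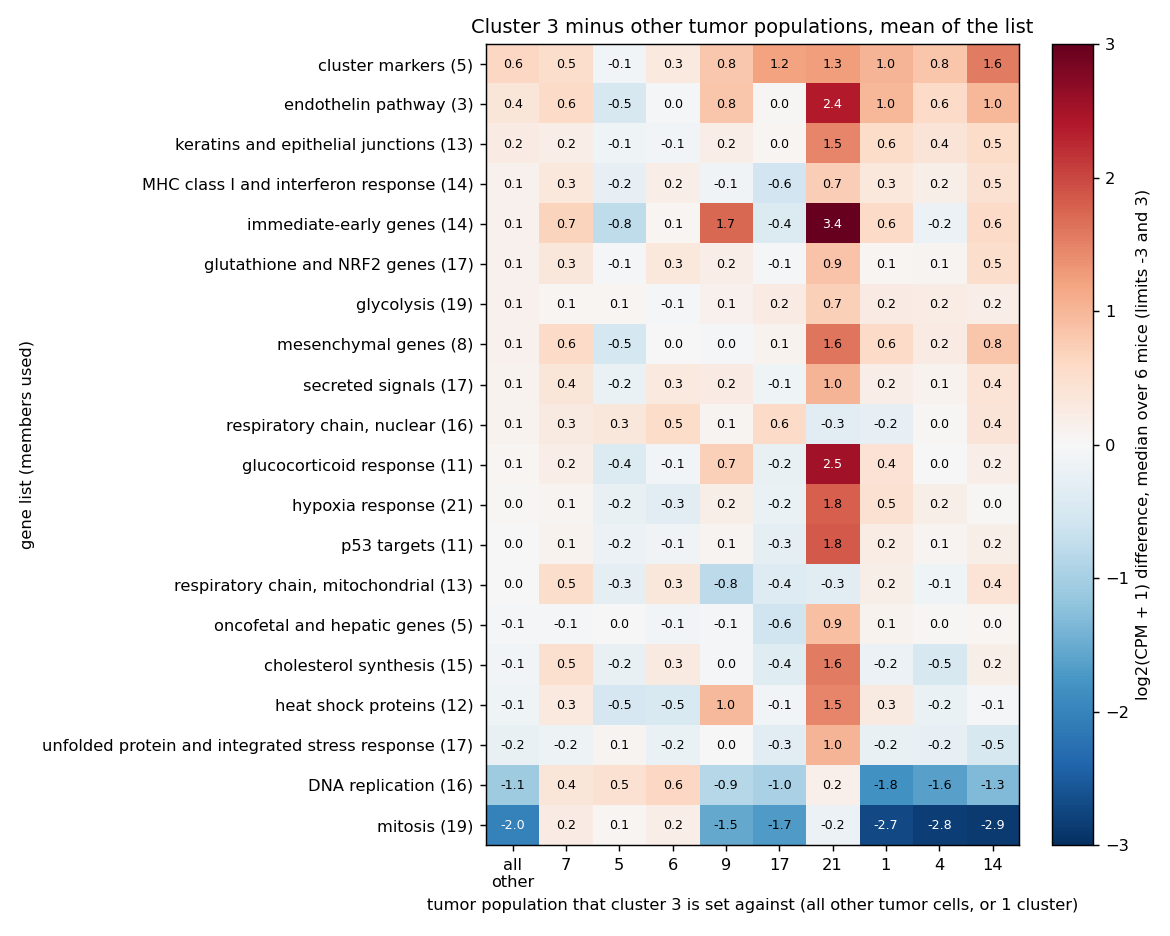
Difference between cluster 3 and other tumor populations in the mean log2(CPM + 1) of each gene list, as the median over the 6 mice. Colours run from lower (blue) to higher (red) in cluster 3. The 2 lowest rows show the cell cycle lists, which are far below clusters 1, 4 and 14. Against clusters 5, 6 and 7 the mitosis list is close, and the DNA replication list is higher by 0.35 to 0.61.

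What separated cluster 3 most from the bulk of tumor cells was a low level of cell cycle transcripts. The 19 genes of the mitosis list were lower than in the other tumor cells in every mouse, and so were 15 of 16 DNA replication genes. The mean log2 ratio of the mitosis list had a median of -2.02 over the mice, with a range of -2.18 to -1.50, and that of the replication list was -1.06. Among single genes, H1f5, a linker histone of dividing cells, had log2 ratios of -3.35 to -2.41. Mki67, the gene of the proliferation antigen Ki-67, had ratios of -3.07 to -2.06, and Ccna2, encoding cyclin A2, -3.25 to -1.93. The remaining genes of the 10 whose smallest deficit in any mouse was largest were Aurkb, Esco2, Fbxo5, Kif15, Ttk, Pbk and Sgo2a, which act in chromosome segregation, cohesion or mitotic control. These 10 genes were chosen among those at 20 CPM or more in the other tumor cells, and all 10 were under that level in cluster 3.

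The deficit was set against clusters 1, 4 and 14, in which 98.1% to 98.8% of cells exceeded 5 mitosis-list UMIs per 10000. In cluster 3, 28.5% of cells did so. This share was uneven between mice: 21.1%, 52.8% and 23.8% in control mice, against 13.6%, 45.7% and 15.1% under stress, with mouse 2 highest in both groups. Clusters 5, 6 and 7 were poorer still in these genes by this measure, with 15%, 15.8% and 18.0% of cells over the limit. Against those 3 clusters the DNA replication list of cluster 3 was higher by 0.47, 0.61 and 0.35 on the log2 scale. The mitosis list differed by only 0.06 to 0.25. Cluster 3 therefore stood between the clusters rich and poor in mitotic transcripts, and nearer to the poor ones.

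The genes higher in cluster 3 formed a shallow and mixed set. Among genes at 20 CPM or more in the population where they were higher, 6203 in all, 1306 were above the other tumor cells in every mouse and 2458 below them. The log2 ratio exceeded 0.5 in every mouse for 3 of the former and was under -0.5 for 171 of the latter. Ordered by the lowest ratio in any mouse, Aldoc was followed by Ly6a, encoding the surface protein Sca-1 (0.52 to 0.70), and Ddah2, which encodes a dimethylargininase family protein (0.50 to 0.89). Rac3, a small GTPase, had ratios of 0.48 to 0.65, and Psme2, a subunit of the interferon-inducible proteasome activator, 0.43 to 0.71. Gsn, encoding the actin-severing protein gelsolin, had ratios of 0.43 to 0.56, and Acads, a mitochondrial short-chain acyl-CoA dehydrogenase, 0.41 to 0.52. Hcfc1r1, Sncg, Rras, Lxn and Prr13 completed the 15 genes, with medians between 0.46 and 0.56. In fold terms the medians of the 15 genes ran from 1.37 to 1.69.

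List members were counted at 1 CPM or more in either population, and of all 11097 genes at that level 16.9% were higher and 33.8% lower in every mouse. By gene list, junction and keratin genes were above the other tumor cells by a median of 0.24, with 9 of 13 members higher in every mouse, and nuclear-encoded respiratory chain genes by 0.10, with 11 of 16. Against single clusters, the junction and keratin list was lower than in clusters 5 (-0.125) and 6 (-0.09). It was higher than in cluster 7 (0.19) and in clusters 1, 4 and 14 (0.56, 0.39 and 0.55). Outside the cell cycle, the lowest list was a set of 6 transcripts chosen for being higher in stress mice in every cell type. It stood at -0.40, with all 6 members lower in cluster 3 in every mouse. The unfolded protein list followed at -0.22, with 13 of 17 members lower in every mouse. Glycolysis genes stood at 0.13 and hypoxia genes at 0.04, both small beside the cell cycle lists. Of the clusters, 7 was most like cluster 3, with a Pearson correlation across 6342 genes of 0.983 to 0.988 in the 6 mice. It was followed by cluster 5 (0.964 to 0.979) and cluster 6 (0.958 to 0.970). These genes are not independent, and each pair of clusters comes from 1 library. Relative to cluster 7, cluster 3 had higher immediate-early genes (0.66), mesenchymal genes (0.58) and cholesterol synthesis genes (0.48). Relative to cluster 5 it had lower immediate-early genes (-0.77) and lower mesenchymal genes (-0.53).

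Cluster 3 made up 15.4%, 15.2% and 13.2% of the tumor cells in control mice, against 16.97%, 13.3% and 16.8% under stress. The mean was 14.6% ± 1.24 (SD, n = 3) against 15.7% ± 2.04 (SD, n = 3), and the groups overlapped. As a share of all annotated cells, it was 8.45% ± 2.07 in control and 6.98% ± 2.76 in stress mice. No test was made of these shares, since the clusters were drawn from genes that also differed between the groups.

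The comparison of stress with control mice within cluster 3 asks which genes of these tumor cells differed between the groups. The UMIs of cluster 3 were summed per mouse, and edgeR's quasi-likelihood test was run over 14099 genes, with a Benjamini-Hochberg adjusted p under 0.05 as the call. Stress was associated with 220 genes higher (1.56%) and 218 lower (1.55%), together 438 genes or 3.11%. The groups did not overlap for 27.2% of all genes tested, and the median log2 change of all genes was -0.01. Of the 14099 genes, 2951 had an unadjusted p under 0.05 in edgeR. Among the 192 called genes at a mean of 20 CPM or more, predicted genes left out, 54 were higher and 138 lower. Falls thus outnumbered rises among the better expressed called genes, unlike over all levels. Leaving out 1 mouse moved the number of called genes to 58 (without control mouse 1), 1379 (control mouse 2), 45 (control mouse 3), 139 (stress mouse 1), 65 (stress mouse 2) or 14 (stress mouse 3). Of the 24 genes named below by size, 17, 24 and 15 kept their call without control mouse 1, 2 and 3, and 21, 16 and 8 without stress mouse 1, 2 and 3. Normalised levels below are CPM scaled by the trimmed mean of M values (TMM).

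**Figure D3:**
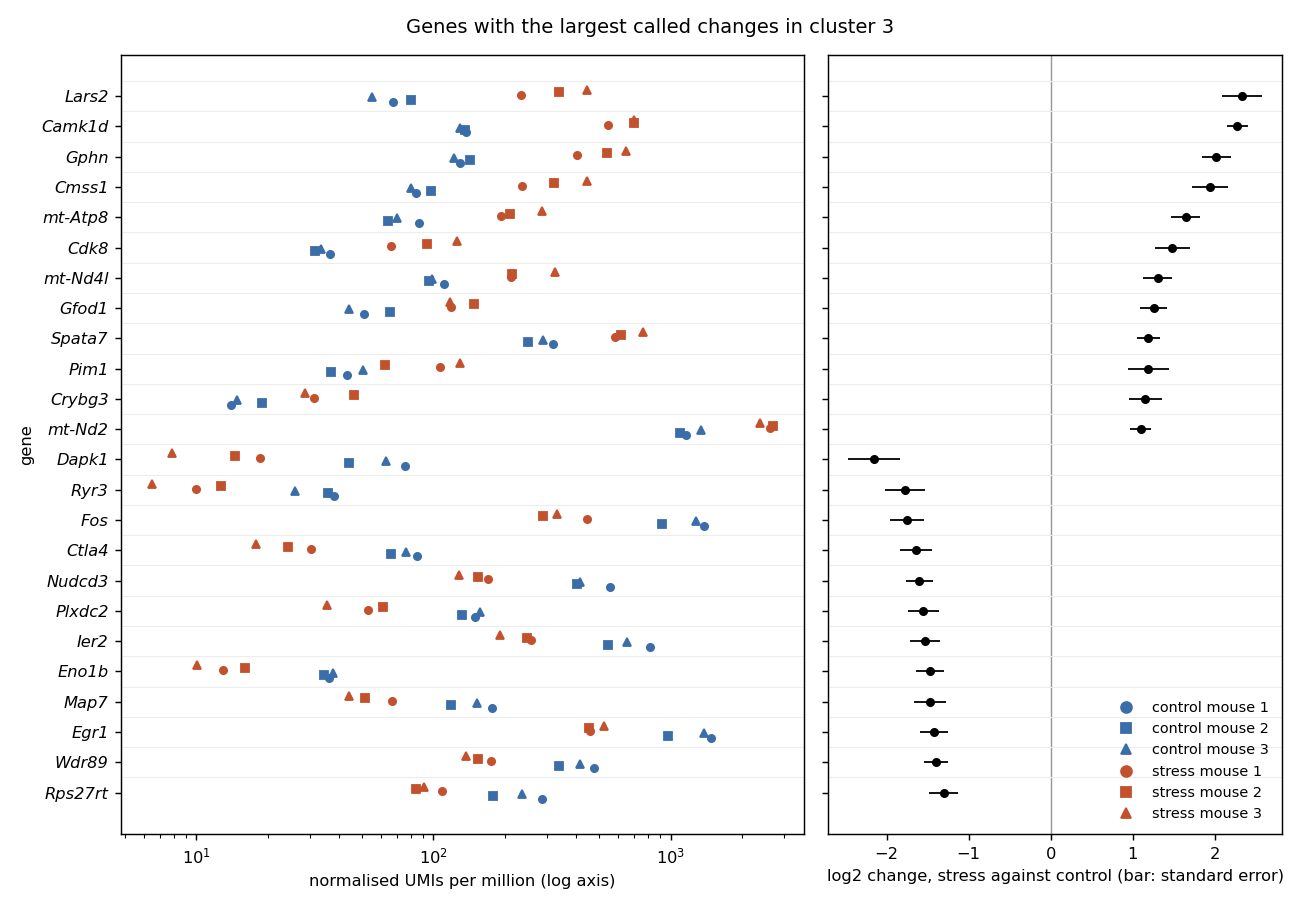
The 12 genes with the largest called rises and the 12 with the largest called falls in cluster 3. Left, normalised CPM in each mouse (log axis); right, log2 change of stress against control with its standard error, from edgeR. For none of the 24 genes do the 3 control and the 3 stress mice overlap, which the rule for naming them required.

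The immediate-early genes Fos, Egr1 and Ier2 were lower in stress mice. These genes answer growth factor and stress signals within minutes, and Fos and Egr1 encode transcription factors. Fos stood at 1388, 917 and 1281 CPM in control mice, against 443, 291 and 333 under stress. It fell by 1.75 on the log2 scale (SE 0.21, edgeR adjusted p = 0.00913). Egr1 was at 1482, 976 and 1380 against 457, 454 and 522, and fell by 1.42 (SE 0.17). Ier2 was at 819, 544 and 657 against 259, 248 and 191, and fell by 1.53 (SE 0.18). Each control mouse was thus above each stress mouse, and in cells thinned to 5000 UMIs the share with a Fos UMI was 85.8% to 90.8% in control mice and 51.3% to 62.3% in stress mice (exact permutation p = 0.10). The share of cells with a Fos UMI was 32.1% in NK/T cells.

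Of the 14 immediate-early genes, 3 passed the test, all lower (1.55% of all genes were called lower), and the median log2 change was -0.49. The others included Egr2 (-1.21, edgeR adjusted p = 0.082), Dusp1, a phosphatase that switches off MAP kinases (-0.73, adjusted p = 0.377), and Atf3 (-0.40, adjusted p = 0.102). Junb (0.02), Jund (0.19) and Ier3 (0.50) did not point the same way. Without stress mouse 3 none of the 3 passed the test. Their log2 changes with 1 mouse left out ranged from -1.94 to -1.62 (Fos), -1.59 to -1.30 (Egr1) and -1.67 to -1.37 (Ier2). Without stress mouse 2, Fos and Ier2 passed. Without control mouse 2, 6 of the 14 genes passed.

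The 250 bases before the Fos start site are shown because Fos had the largest fall of these genes, with the cyclic AMP response half-site TGACG, searched on both strands, in capitals. The sequence is RefSeq's for GRCm38.p6, plus strand, chr12:85473640-85473889, and the matches begin 129 and 66 bases before the start.
Fos: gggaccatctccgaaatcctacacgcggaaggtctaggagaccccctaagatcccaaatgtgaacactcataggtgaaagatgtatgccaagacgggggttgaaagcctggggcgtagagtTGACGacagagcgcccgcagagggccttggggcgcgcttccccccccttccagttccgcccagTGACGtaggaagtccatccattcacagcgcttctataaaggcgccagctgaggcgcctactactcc
Of 27025 genes in the promoter table, 19.8% held TGACG or its complement CGTCA in this window. Of the 14 immediate-early genes 12 were in the table, and 7 held it: Atf3, Btg2, Dusp1, Egr2, Fos, Fosb and Junb. Egr1 and Ier2 had no entry. Only 1 of these 7 genes was among the called ones.

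**Figure D4:**
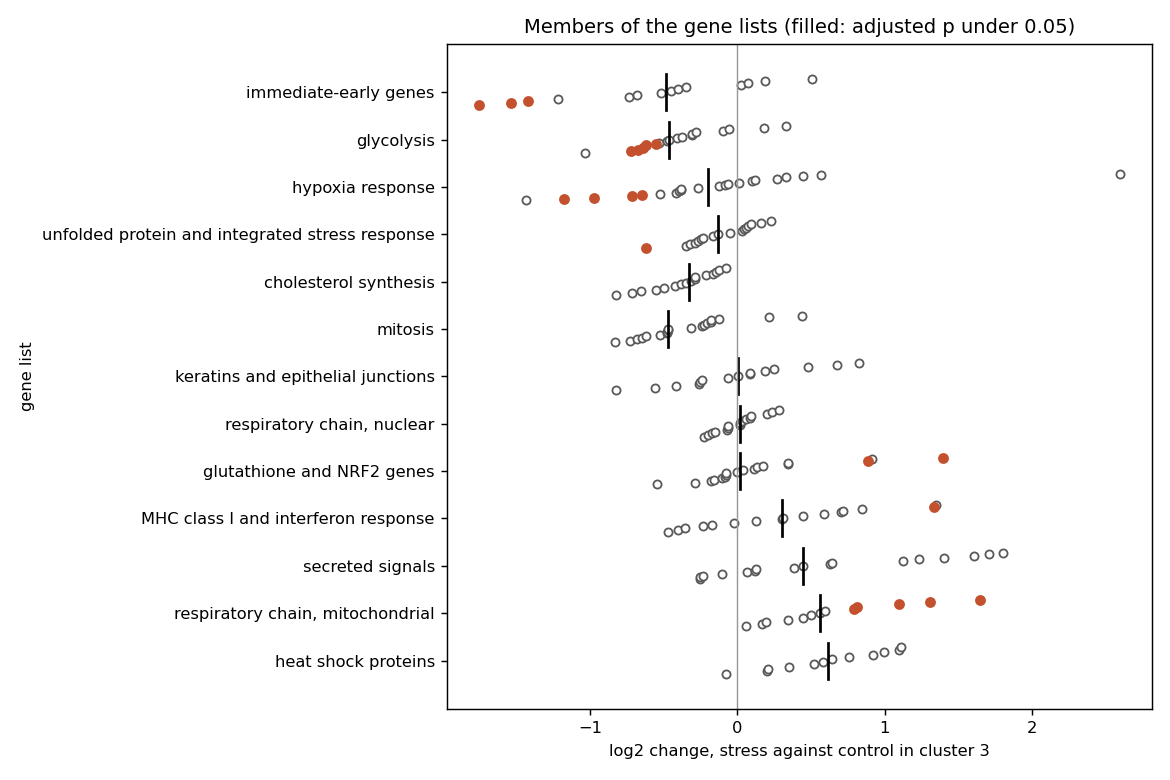
Log2 change of stress against control in cluster 3 for the tested members of 13 gene lists, with 1 point per gene and a black bar at the list median. Filled points passed the test (edgeR adjusted p under 0.05). Calls lie on the lower side for immediate-early, glycolysis and hypoxia genes and on the higher side for mitochondrially encoded genes, and no heat shock member passed although the list median is 0.61.

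Several genes of glucose breakdown were lower in the cluster 3 cells of stress mice. Of the 19 glycolysis genes, 5 passed the test and all 5 fell, 17 had a negative log2 change and the list median was -0.46. Slc2a1, the glucose transporter GLUT1, stood at 109, 161 and 120 CPM in control mice, against 73.6, 83.1 and 79.5 under stress, and fell by 0.72 on the log2 scale (SE 0.15, edgeR adjusted p = 0.0456). Pkm, the pyruvate kinase gene, stood at 733, 915 and 816 against 461, 601 and 483, and fell by 0.67 (SE 0.14). Gpi1, glucose-6-phosphate isomerase, was at 305, 274 and 303 against 205, 180 and 180, and fell by 0.64 (SE 0.10, adjusted p = 0.0231). Pfkp, a phosphofructokinase, and Pdk1, the kinase that turns pyruvate away from mitochondria, fell by 0.55 and 0.62. The groups did not overlap for 12 of the 19 genes, against 27.2% of all genes tested, of which 1.55% were called lower. Eno1, an enolase, had a log2 change of 0.33 (adjusted p = 0.119), and Hk2, a hexokinase, 0.18 (adjusted p = 0.374). Eno1 shares sequence with Eno1b, which had a change of -1.47, so the Eno1 value is uncertain. Ldha, the lactate dehydrogenase gene, had a change of -0.53 that missed the threshold (adjusted p = 0.080). The fall was not particular to cluster 3. Relative to the other tumor cells, the changes of the 19 genes had a median of 0.09. For that difference, 0 passed in edgeR, 8 had an unadjusted p under 0.05 and DESeq2 called 0.

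Of 22 tested genes of the hypoxia response, 4 passed the test, again all lower, against 1.55% of all genes called lower. Ankrd37, a target of hypoxia-inducible factor, stood at 88.1, 65.0 and 81.6 CPM in control mice, against 41.9, 31.3 and 30.4 under stress, and fell by 1.18 on the log2 scale (SE 0.16, edgeR adjusted p = 0.0144). Bnip3, a mitochondrial protein of the mitophagy pathway, was at 192, 148 and 208 against 115, 103 and 116, and fell by 0.71 (SE 0.14). Ddit4, an inhibitor of mTORC1 signalling, fell by 0.97 (SE 0.17), and Ndrg1, a gene induced by low oxygen, by 0.65 (SE 0.13). The list as a whole was split: 14 members were negative and 8 positive, with a median of -0.20, and Vegfa, the vascular growth factor gene, had a change of 0.45 (adjusted p = 0.310). The glycolysis and hypoxia calls depended on single mice. None of the 9 genes passed without control mouse 1, control mouse 3, stress mouse 2 or stress mouse 3, and 1 of each list passed without stress mouse 1, while the log2 changes of the 9 stayed between -1.35 and -0.52. Without control mouse 2, 8 glycolysis and 4 hypoxia genes passed. In thinned cells, 2 glycolysis genes and 1 hypoxia gene passed. The marker Aldoc is also a glycolysis member, and Edn2 a hypoxia member. Relative to the other tumor cells, the changes of 23 hypoxia genes had a median of 0.06. For that difference, edgeR called 1, Edn2, and not the 4 fallen genes. An unadjusted p under 0.05 was found for 8 of the 23, and DESeq2 called 2, both higher.

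The core of the binding site of hypoxia-inducible factor is ACGTG, and its place before 3 of the fallen genes is shown because they carry both the change and the letters. Capitals mark ACGTG or its complement CACGT in the 250 bases before the start site, from RefSeq for GRCm38.p6. The windows are chr8:45999851-46000100 (Ankrd37, minus strand), chr7:138909507-138909756 (Bnip3, minus strand) and chr4:119108495-119108744 (Slc2a1, plus strand).
Ankrd37: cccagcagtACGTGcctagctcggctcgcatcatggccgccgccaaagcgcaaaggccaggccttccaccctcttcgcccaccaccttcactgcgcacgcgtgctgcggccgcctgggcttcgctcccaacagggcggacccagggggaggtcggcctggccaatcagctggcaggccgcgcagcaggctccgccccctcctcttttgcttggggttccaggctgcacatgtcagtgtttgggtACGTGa
Bnip3: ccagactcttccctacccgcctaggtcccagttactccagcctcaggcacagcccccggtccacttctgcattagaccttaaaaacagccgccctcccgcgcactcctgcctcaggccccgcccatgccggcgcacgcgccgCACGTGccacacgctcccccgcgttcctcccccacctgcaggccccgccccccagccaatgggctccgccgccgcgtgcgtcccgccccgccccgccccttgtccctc
Slc2a1: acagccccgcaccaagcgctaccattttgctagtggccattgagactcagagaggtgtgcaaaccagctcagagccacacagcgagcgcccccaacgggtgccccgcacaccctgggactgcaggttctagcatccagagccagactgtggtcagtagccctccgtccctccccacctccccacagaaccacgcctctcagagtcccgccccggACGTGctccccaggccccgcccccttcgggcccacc
Ankrd37 had 2 matches, 241 and 6 bases before the start, Slc2a1 had 1 at 36 bases, and Bnip3 had 1 stretch at 108 bases that reads on both strands and is also an E-box. Ddit4 and Pkm held a match too, so that 5 of the 8 fallen genes with an entry did, against 18.5% of all 27025 genes. The same held for 24 of the 38 genes in the table from both lists (63.2%), fallen or not, so the share among the fallen genes (62.5%) was close to that of the lists they came from. Ndrg1 had no entry.

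On the higher side, all 13 mitochondrially encoded genes had positive changes and 5 passed the test (1.56% of all genes were called higher). The list median was 0.56. mt-Nd2, a subunit of respiratory complex I, stood at 1164, 1097 and 1351 CPM in control mice, against 2633, 2699 and 2395 under stress, a log2 change of 1.10 (SE 0.12, edgeR adjusted p = 0.0091). mt-Nd3 rose by 0.81 and mt-Nd5 by 0.79, both complex I subunits. mt-Atp8 and mt-Nd4l rose by 1.65 and 1.31, but each overlaps a neighbour on the mitochondrial chromosome from which its reads cannot be told apart with certainty. The neighbours mt-Atp6 and mt-Nd4 had changes of 0.19 and 0.50 and did not pass the test. Relative to the other tumor cells, the changes of the 13 genes had a median of -0.02. For that difference, 0 passed in edgeR, 0 had an unadjusted p under 0.05 and DESeq2 called 0. Of the nuclear genes of the respiratory chain, 0 of 16 passed in edgeR, 2 had an unadjusted p under 0.05 and DESeq2 called 0. Their median log2 change was 0.02. Without control mouse 1 or stress mouse 3, 2 mitochondrial genes passed, mt-Atp8 and mt-Nd4l, and mt-Nd2 missed the threshold. Without control mouse 3 the 2 that passed were mt-Atp8 and mt-Nd2. Without stress mouse 2, 3 did: mt-Atp8, mt-Nd2 and mt-Nd4l. In each of these cases mt-Nd3 and mt-Nd5 missed the threshold, and mt-Nd5 did so also without stress mouse 1. The median share of mitochondrial UMIs per cell moved the same way, as given above. That share is counted from mitochondrially encoded genes, these 13 among them, so it is no separate observation. Its part in this result was not tested.

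Of the 12 largest called rises at 20 CPM or more, 5 belonged to a set of 6 transcripts. The set was chosen from earlier results of these data for being higher in stress mice in every cell type. Their direction here is therefore no independent evidence. Camk1d, a calcium-dependent kinase gene, stood at 137, 135 and 129 CPM in control mice, against 546, 702 and 701 under stress, a log2 change of 2.28 (SE 0.13, edgeR adjusted p = 0.00098). Lars2, the mitochondrial leucyl-tRNA synthetase, rose by 2.33 (SE 0.24), Gphn, the gephyrin scaffold gene, by 2.02 (SE 0.18), Cmss1 by 1.94 (SE 0.22) and Cdk8, a Mediator kinase, by 1.48 (SE 0.21). The sixth, Gm19951, rose by 2.08. Cdk8 missed the threshold without control mouse 1, control mouse 3, stress mouse 2 or stress mouse 3. Their changes relative to the other tumor cells had a median of 0.04, and none of the 6 passed that test in edgeR (1 had an unadjusted p under 0.05, and DESeq2 called 0).

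Among the other named rises, Pim1, a serine/threonine kinase induced by cytokines, stood at 43.3, 36.8 and 50.5 CPM in control mice, against 107, 62.4 and 129 under stress, a log2 change of 1.19 (SE 0.25, edgeR adjusted p = 0.0441). Spata7, a gene of the primary cilium, rose from a mean of 287 ± 33.9 (SD, n = 3) to 656 ± 97.1 CPM, a log2 change of 1.19 (SE 0.14). Gfod1 rose by 1.25 (SE 0.17) and Crybg3 by 1.16 (SE 0.20). Both Pim1 and Crybg3 missed the threshold in thinned cells (adjusted p = 0.0621 and 0.0513). They also missed it without control mouse 1, control mouse 3, stress mouse 1 or stress mouse 3, and Crybg3 without stress mouse 2 as well. Gfod1 missed it without control mouse 1, control mouse 3, stress mouse 2 or stress mouse 3, and Spata7 without control mouse 3 or stress mouse 3.

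Among 18 tested glutathione and NRF2 genes, 2 passed, both higher, against 1.56% of all genes called higher. Gpx4, the peroxidase that protects membranes from lipid peroxides, stood at 112, 99.0 and 120 CPM in control mice, against 220, 162 and 229 under stress, a log2 change of 0.89 (SE 0.15, edgeR adjusted p = 0.0257). Gstp1, a cytosolic glutathione transferase, rose by 1.40 (SE 0.14, adjusted p = 0.0091), from 7.60 ± 0.720 to 20.1 ± 1.98 CPM (SD, n = 3). The list median was 0.02 and the marker Mgst3 had a change of -0.08 (adjusted p = 0.917), and the remaining 16 tested members did not pass. Without stress mouse 3 neither of the 2 passed, 1 passed without control mouse 1, control mouse 3 or stress mouse 1, and 3 of the list passed without control mouse 2. Isg15, an interferon-induced modifier, was the 1 called member of 16 tested MHC class I and interferon genes, with a rise of 1.33 at a low level (1.903 ± 0.296 against 4.80 ± 0.255 CPM). Over all genes tested, 3.11% were called in either direction.

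Of the 12 largest falls, 9 lay outside the immediate-early list. Dapk1, a death-associated kinase, stood at 75.8, 44.0 and 63.2 CPM in control mice, against 18.6, 14.5 and 7.88 under stress, and fell by 2.16 on the log2 scale (SE 0.31, edgeR adjusted p = 0.0167). Ryr3, a ryanodine receptor of calcium stores, fell by 1.78 (SE 0.25), Plxdc2, a transmembrane protein gene, by 1.55 (SE 0.19), Map7, a microtubule-associated protein gene, by 1.47 (SE 0.19) and Nudcd3, a cochaperone gene, by 1.60 (SE 0.16). Ctla4, known as an inhibitory receptor of T cells, was at 85.1, 66.0 and 76.6 CPM in control and 30.6, 24.4 and 17.8 in stress mice, and fell by 1.65 (SE 0.20). Without stress mouse 3, Dapk1, Ryr3, Map7, Nudcd3 and Ctla4 missed the threshold while Plxdc2 passed. Dapk1 missed it also without control mouse 1, control mouse 3 or stress mouse 2, Ryr3 without control mouse 1 or stress mouse 1, Map7 without control mouse 3 or stress mouse 2, and Ctla4 without stress mouse 2. The 7 T and NK cell markers summed to 0.956, 4.51 and 0.700 CPM in the control mice and 1.29, 4.82 and 2.91 in the stress mice. Of the 4 that could be tested, 0 passed in edgeR, 0 had an unadjusted p under 0.05 and DESeq2 called 0. Eno1b, Wdr89 and Rps27rt also fell, by 1.47, 1.40 and 1.31, but Eno1b and Rps27rt share sequence with Eno1 and Rps27, and their changes are uncertain for that reason. Rps27 had a change of -0.17 (edgeR adjusted p = 0.656). Wdr89 missed the threshold without stress mouse 3, and Rps27rt without control mouse 3, stress mouse 2 or stress mouse 3.

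The marker genes of cluster 3 gave no called change with stress, by edgeR (2 had an unadjusted p under 0.05, and DESeq2 called 1, Aldoc). In edgeR, Edn2 and Aldoc passed with no filter on low counts, and Aldoc also without control mouse 2. Edn2 had the largest difference of the 5 but varied most between mice: 15.95, 2.35 and 11 CPM in control mice, against 123, 35.2 and 18.9 under stress. Its log2 change was 2.60 (SE 0.79, adjusted p = 0.120), and with 1 mouse left out the change ranged from 1.47 to 3.16. The Edn2 message sat in few cells, and the 5% of cluster 3 cells with the most Edn2 UMIs held 79.9% of them. In thinned cells, 6.32%, 1.14% and 3.05% of cluster 3 cells of control mice and 19.2%, 9.50% and 6.76% of those of stress mice held an Edn2 UMI (exact permutation p = 0.10), against 1.004% of NK/T cells at their full depth of 4403 UMIs. Aldoc stood at 54.3, 29.9 and 49.2 CPM against 29.9, 17.3 and 17.9, with a change of -1.03 (adjusted p = 0.084). Krt18 had a change of 0.48 (adjusted p = 0.250) and Cldn6 of -0.06 (adjusted p = 0.852). Of the partners of Edn2, Ece1, which activates endothelins, had a change of 0.09, and the receptor gene Ednrb, at 0.109 to 2.02 CPM in a mouse, had one of -1.21 (SE 0.91, adjusted p = 0.489). Edn1 had a change of -0.34, while Edn3, Ednra and Ece2 were too low to be tested.

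A second test asked whether stress changed a gene differently in cluster 3 than in the other tumor cells of the same mice. Over 17815 genes, edgeR's test of this difference called 10 genes higher (0.0561%) and 11 lower (0.0617%), together 0.118%. For 19.4% of all genes the ratio of cluster 3 to the other tumor cells did not overlap between the groups. With all 6 mice, 2195 of the 17815 genes had an unadjusted p under 0.05. The call rested on few mice: without control mouse 1, control mouse 3 or stress mouse 1 it was made for 0 genes (1518, 1442 and 1321 at an unadjusted p under 0.05), against 39, 44 and 6 when control mouse 2, stress mouse 2 and stress mouse 3 were dropped. DESeq2 called 48 genes with all 6 mice.

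**Figure D5:**
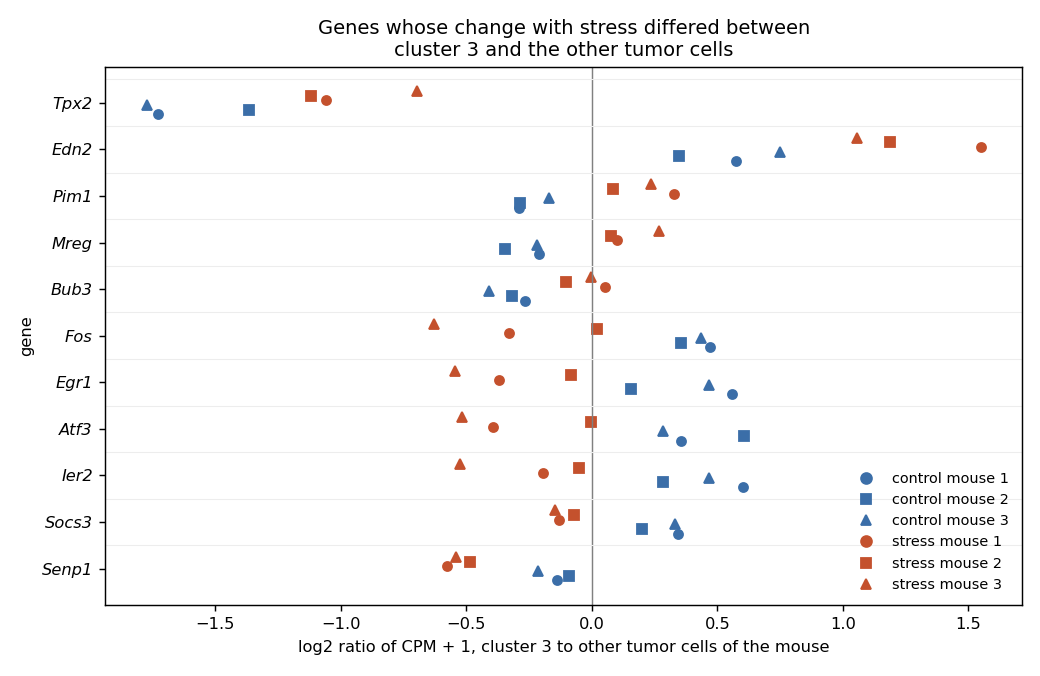
Log2 ratio of cluster 3 to the other tumor cells of the same mouse, on normalised CPM + 1, for the 11 named genes whose change with stress differed. Blue points are control mice and red points stress mice; the immediate-early genes lie to the right of 0 in control mice and at or to the left of it in stress mice, and Edn2, Pim1 and Mreg lie further to the right in stress mice.

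Among genes at a mean of 20 CPM or more in cluster 3, immediate-early genes led the lower side. Below that level, Tmem151a (-1.22) and Spata6l (-3.71) had larger called differences. Fos in cluster 3 was above the other tumor cells in control mice, with log2 ratios of 0.47, 0.35 and 0.44, and at or below them in stress mice, with -0.33, 0.02 and -0.63. The change with stress was lower in cluster 3 by 0.74 on the log2 scale (SE 0.11, edgeR adjusted p = 0.0196). DESeq2 did not call the difference for Fos or for Egr1, and called the other 9 named genes. Egr1 had ratios of 0.56, 0.16 and 0.47 against -0.37, -0.08 and -0.55, a difference of -0.73 (SE 0.10). Ier2 (-0.71, SE 0.10) and Atf3 (-0.73, SE 0.10) followed the same course, and 12 of the 14 immediate-early genes had negative differences, with a median of -0.33 and 4 calls. Over all genes, 0.118% were called in this test. Socs3, a feedback inhibitor of cytokine signalling, differed by -0.43 (SE 0.07), Senp1, a SUMO protease, by -0.40 (SE 0.06), and Ddit3, the stress transcription factor CHOP, by -0.45 (SE 0.08). These 3 genes missed the threshold in thinned cells, and Ddit3 also with the RLE normalization and with clusters 5, 6, 7 and 9 as the reference.

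These differences hold against the mixture of the other clusters, not against each of them. In cluster 7, the nearest cluster, mean Fos CPM was lower in stress mice by a log2 ratio of -1.92, against -1.73 in cluster 3, and in cluster 21 by -1.67. In clusters 4 and 5 the ratios were -0.66 and -0.56, and their groups overlapped. Atf3 showed the contrast most plainly, with ratios of -0.37 in cluster 3 and -0.20 in cluster 7 but 0.93 in cluster 4, 0.41 in cluster 5 and 1.24 in cluster 9. With clusters 5, 6, 7 and 9 alone as the reference, 21 genes were called, 11 of them the same, and Fos, Egr1, Atf3 and Ier2 stayed among them, while Pim1, Mreg, Tpx2 and Bub3 did not pass.

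On the higher side was Edn2. Its ratios to the other tumor cells were 0.57, 0.35 and 0.75 in control mice, against 1.55, 1.19 and 1.06 under stress, a difference of 0.68 (SE 0.12, edgeR adjusted p = 0.0478). It missed the threshold with the RLE normalization, without called doublets and in thinned cells. In plain CPM, Edn2 was 9.60 ± 6.73 in control and 57.3 ± 51.0 in stress mice in cluster 3 (SD, n = 3), and nearly the same in cluster 5, at 12.7 ± 9.98 and 59.0 ± 35.8. Edn2 is also 1 of the genes that mark the cluster. Pim1 turned from below the other tumor cells (-0.29, -0.29 and -0.17) to above them (0.33, 0.08 and 0.24), a difference of 0.48 (SE 0.07, adjusted p = 0.0196). Mreg, a melanosome transport gene, did likewise with a difference of 0.42 (SE 0.07). Tpx2 and Bub3, which act at the mitotic spindle and its checkpoint, differed by 0.68 (SE 0.12) and 0.32 (SE 0.06), and both were lower in cluster 3 than in the other tumor cells of control mice. Pim1, Mreg, Tpx2 and Bub3 also missed the threshold in thinned cells, and Mreg, Tpx2 and Bub3 with the RLE normalization. The remaining called genes, named after their values were seen, were Fam83d, Kpna2, Kpna2rt, Ccnf and 1700095J07Rik on the higher side and a, Gm26532, Tmem151a and Spata6l on the lower side.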

How the data were processed

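The 6 libraries were made with 10x Genomics Chromium and aligned by the authors to mm10 with Cell Ranger, in version 9.0.0 for control and 7.1.0 for stress mice. The deposited matrices hold UMI counts per gene and cell, and the deposited annotation gives each cell's type, cluster and sample. The UMIs per cell in the matrices equalled those given in the annotation for 68.3% to 76.7% of cells in a library. The reason for the difference in the remaining cells was not tested. By the study's methods, cells with few genes or over 20% mitochondrial UMIs were removed, doublets were called with Scrublet and removed, and clusters were built in Seurat after Harmony integration. The counting annotation is not given in the sources used here. Doublets left in the deposited cells were called again, per library, with Scrublet in scanpy 1.11.5; they were kept in the tests, which were repeated without them.

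Counts were summed per mouse over cluster 3. They were tested with edgeR's quasi-likelihood test (edgeR 4.0.16, R 4.3.3; filterByExpr, TMM, Benjamini-Hochberg threshold 0.05), and DESeq2 1.42.0 served as an alternative. The difference from other tumor cells was tested as an interaction, with 1 sum per mouse and population. Apart from traits that all 6 share, the labels tell the mice apart only by group and number. The p-values measure the spread between these 3 and 3 mice. Named were, by a fixed rule, the 12 largest called rises and 12 largest called falls with a mean of 20 CPM or more and groups that did not overlap, up to 6 in each direction for the difference test, and the 15 higher and 10 lower genes ranked by the weakest log2 ratio of cluster 3 to other tumor cells in any of the 6 mice. Predicted genes were left out, and list members could be named with their values. The members and gene lists were chosen with earlier results of these data known. The steps were tested on simulated data. Alternatives were other normalization and filters, a replicate block, leaving out each mouse, thinned cells and equal cell numbers.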

Additional observations from a re-analysis of the deposited data

Results flagged for a closer look

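The change with stress in cluster 3 differed from that in the other tumor cells of the same mice, by edgeR's test of the difference itself, for 12 genes described above. On the log2 scale it was higher by 0.68 for Tpx2, 0.68 for Edn2, 0.48 for Pim1, 0.42 for Mreg and 0.32 for Bub3. It was lower, with differences of -0.74 for Fos, -0.73 for Egr1, -0.73 for Atf3, -0.71 for Ier2, -0.43 for Socs3, -0.40 for Senp1 and -0.45 for Ddit3. In each case the ratios of the 3 control mice and the 3 stress mice did not overlap, which the naming rule required for all but Ddit3. Of all genes tested, 19.4% did not overlap either. Socs3, Senp1 and Ddit3 missed the threshold in thinned cells, as did Tpx2, Edn2, Pim1, Mreg and Bub3, and no gene passed without control mouse 1, control mouse 3 or stress mouse 1.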

How the results depend on the processing

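The 438 genes changed by stress in cluster 3 became 704 with no filter on low counts, 132 in thinned cells and 905 in DESeq2, and 14 to 1379 with 1 mouse left out. The 21 genes whose change differed from the other tumor cells became 12 with the RLE normalization (3 higher and 9 lower), 304 with no filter (206 higher and 98 lower), 5 in thinned cells and 48 in DESeq2 (32 higher and 16 lower), and 0 to 44 with 1 mouse left out. With a replicate block on the mouse number the counts were 1325 and 96, the markers Edn2 and Aldoc passed, and 8 heat shock genes did. Whether the numbers pair the mice is not known. The deviations of same-numbered control and stress mice correlated with r = 0.516, 0.466 and -0.104. Those of differently numbered mice gave -0.599 to 0.462, so these values do not settle it. The difference in the share of cluster 3, 1.07 percentage points of tumor cells, was -1.47 points of all annotated cells, and 0.353 to 2.24 with 1 mouse left out. The cause of these shifts was not tested. Of the 24 genes named for stress, 8 kept their call without stress mouse 3, 22 in thinned cells and 23 with equal cell numbers. None of the 24 and 11 genes named for the tests reversed direction under the alternatives run. The uncalled markers Cldn6 (-0.06) and Mgst3 (-0.08) changed sign with 1 mouse left out, ranging from -0.15 to 0.075 and from -0.46 to 0.19. Cldn6 was 0.075 when control mouse 2 and 0.03 when stress mouse 1 was dropped, and Mgst3 was 0.19, 0.10 and 0.04 when control mouse 1, stress mouse 2 and stress mouse 3 were dropped. Chosen after seeing the data, leaving out cells rich in other cell types' markers gave 435 genes, and leaving out cells rich in mitosis genes gave 393. The Cell Ranger version cannot be told apart from stress.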

Other observations

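Several lists had shifted medians without a called member. For the counts below, 2951 of all 14099 genes tested had an unadjusted p under 0.05 in edgeR. Of the 12 heat shock genes tested, 11 had a positive log2 change in stress mice, with a median of 0.61, but 0 passed in edgeR, 7 had an unadjusted p under 0.05 and DESeq2 called 6. In edgeR, 5 passed without control mouse 2, 1 without control mouse 1, 1 with the RLE normalization, 3 with no filter on low counts, 1 in thinned cells and, chosen after seeing the data, 2 without cells rich in mitosis genes. All 16 tested cholesterol synthesis genes had negative changes, with a median of -0.33, and 0 passed in edgeR, 3 had an unadjusted p under 0.05 and DESeq2 called 1. Of 17 secreted signals, 13 were positive, with a median of 0.45, and 0 passed in edgeR, 6 had an unadjusted p under 0.05 and DESeq2 called 2. Of the 19 mitosis genes 17 were negative, with a median of -0.47, and 0 passed in edgeR, 2 had an unadjusted p under 0.05 and DESeq2 called 1.

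The list of 11 tested glucocorticoid response genes had a median log2 change of -0.10, with 0 passed in edgeR, 2 at an unadjusted p under 0.05 and 0 called by DESeq2. Of 17 genes of the unfolded protein and integrated stress response 1 passed, against 3.11% of all genes. This was Ddit3, which fell by 0.62 on the log2 scale (SE 0.13, edgeR adjusted p = 0.0487).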
